A study of Homo sapiens with 14 samples.

Results

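The response of LNCaP prostate cancer cells to SEL120-34A, an inhibitor of the kinases CDK8 and CDK19, was examined in 6 of the 14 RNA libraries of the series. LNCaP is an established cell line from a lymph node metastasis of prostate cancer that depends on androgen and is sensitive to the antiandrogen enzalutamide. Per the labels, cells seeded in 6-well plates were kept for 3 days either with 1.5 µM SEL120-34A or with the vehicle DMSO alone, with 3 libraries in each arm. The culture conditions in the labels of all samples, LNCaP included, name 22Rv1 cells only, so the medium of the LNCaP cultures is not stated there. No gene was deleted or overexpressed in either arm, and no androgen or antiandrogen was named in the labels of these samples. All genes that passed a low-count filter on these 6 libraries were tested, which left 5753 of the 62703 genes in the table. Another 12821 genes had at least 1 count in LNCaP and stayed below the filter.

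CDK8 and its paralog CDK19 are the catalytic subunits of the Mediator kinase module, a detachable part of the Mediator complex that also holds cyclin C, MED12 and MED13. Mediator carries signals from transcription factors bound at enhancers to RNA polymerase II at promoters, and its kinase module can restrain or promote transcription of a gene, depending on the gene and the factor. In prostate cells many luminal genes, among them the kallikreins, are driven by the androgen receptor, which uses Mediator as a coactivator.

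Total counts ranged from 412881 to 759548 in the DMSO libraries and from 291056 to 519928 in the SEL120-34A libraries. The arms overlapped in depth, but the treated arm was shallower on average (mean 405957, against 639925 for DMSO). Levels are given as CPM, counts relative to the library total with TMM scaling. The floor of detection was taken as 3 counts, which correspond to 3.95 to 10.3 CPM on library totals before TMM scaling. The luminal identity of the cells was checked first. All 9 luminal prostate markers passed the filter, whereas none of the 25 basal, neuroendocrine, fibroblast, immune and endothelial markers did. The luminal list summed to 4142, 4222 and 3751 CPM in the DMSO libraries and 3208, 3028 and 3178 in the SEL120-34A libraries. Every treated library thus lay below every control. Of its 9 genes 3 were called lower (KLK3, KLK2 and KRT18) and 1 higher (FOLH1), or 44.4%. The mean falls of KLK3 and KLK2, given below, together exceed that of the sum, so the sum does not describe the other luminal markers. The other sums were at most 4.76 CPM for the basal, 2.38 for the neuroendocrine, 1.28 for the immune and 2.56 for the endothelial list, and the fibroblast sum is given with FN1. KRT5, TP63, PTPRC and CDH5, the defining markers of basal, immune and endothelial cells, had 0 counts in all 6 libraries. SEL120-34A replicate 3 lay nearest to the controls on the first principal component (1.60, against 9.25 and 7.02 for the other treated libraries and -7.52 to -3.69 for the controls).

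To determine how much of the transcriptome responded, edgeR's quasi-likelihood test was applied to the 2 arms. A total of 199 genes passed an adjusted p of 0.05, which was 3.46% of those tested, with 139 genes higher (2.42%) and 60 lower (1.04%) in the treated arm. Without adjustment 898 genes had a p under 0.05. Among the genes that rose, 65 changed by at least 1 on the log2 scale, and among those that fell 15 did. The treated libraries lay wholly above or below the controls for 1208 tested genes (21%), and for 134 of the 139 rises and 58 of the 60 falls. The excess of rises depended on scaling, since library totals without TMM gave 104 rises and 103 falls and moved the median of all genes by -0.08.

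Calls also depended on single libraries. Of the 139 rises 51 held when any 1 library was left out, and of the 60 falls 9 did. The number of calls was 281 without SEL120-34A replicate 3 and lay between 86 and 98 without DMSO replicate 2 or 3 or SEL120-34A replicate 1 or 2. In these last 4 fits there were 72 to 81 rises and 14 to 19 falls. The plot of all tested genes shows that calls were made over the whole range of levels.

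**Figure D1:**
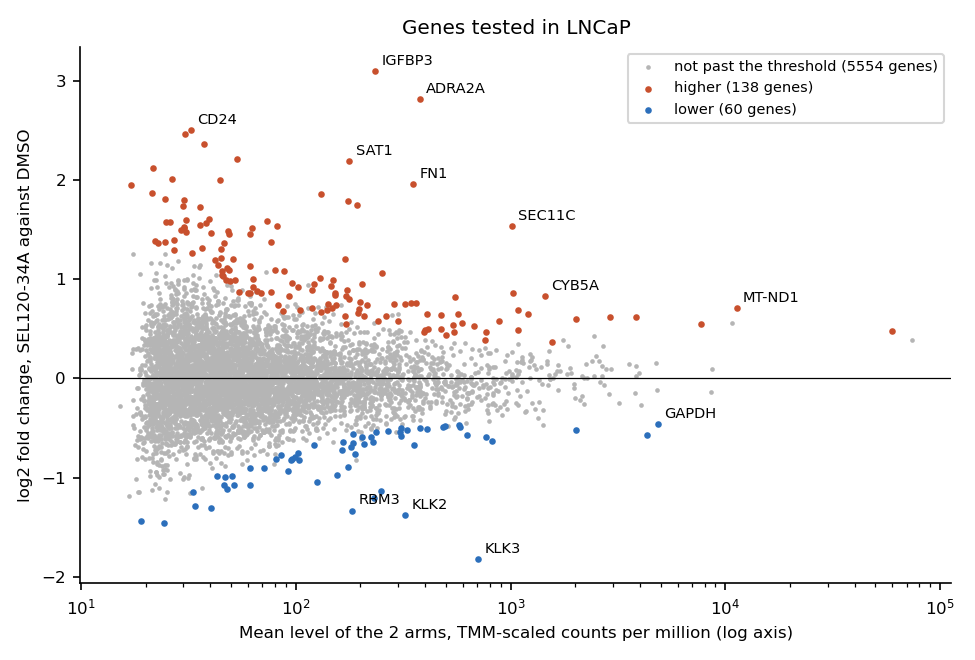
Log2 fold change of SEL120-34A against DMSO in LNCaP (vertical axis) against the mean level of both arms in TMM-scaled CPM (horizontal log axis), 1 point per tested gene, with genes past an adjusted p of 0.05 in red (higher) or blue (lower). COL5A2, whose control libraries were all at or under 3 counts, is left out. IGFBP3 (3.10) and ADRA2A (2.82) stand highest at intermediate levels, and KLK3 (-1.82) lies lowest of all.

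The kinases themselves were examined because they are the drug's targets. CDK8 counts were too low to test, at 9, 4 and 9 in the DMSO and 3, 6 and 5 in the SEL120-34A libraries, and MED12 and MED13 were also below the filter with 1 to 17 counts per library. CDK19 was at 57.6, 52.3 and 69.1 CPM in the controls and at 76.6, 125 and 61.3 CPM in the treated libraries (log2 fold change 0.51 ± 0.24 SE, adjusted p 0.317). CCNC, which encodes cyclin C, the activating partner of both kinases, was at 90.9, 140.3 and 114 CPM and 128, 84.0 and 97.7 CPM (log2 fold change -0.15 ± 0.20 SE, adjusted p 0.780). The arms overlapped for both genes. Of the 14 core Mediator subunits tested none passed, and their median log2 fold change was -0.07, compared with -0.01 for all tested genes, and -0.10 to 0.02 with 1 library left out. MED28 (-0.04, adjusted p 0.946) and MED29 (0.16, adjusted p 0.807) had the most counts among them. None of 25 transcriptional kinase and elongation genes passed either, including the polymerase subunits POLR2H (-0.08, adjusted p 0.841) and POLR2E (0.26, adjusted p 0.451).

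To investigate the androgen axis, the kallikrein genes were examined. KLK3 (ENSG00000142515.16, chromosome 19, 50854915 to 50860764, GRCh38) encodes prostate-specific antigen, a secreted serine protease and the main serum marker of prostate cancer. It was at 1133, 1244 and 951 CPM in the DMSO libraries and at 222, 341 and 355 CPM in the SEL120-34A libraries. The highest treated library thus remained far under the lowest control, and the fall was the largest of any gene tested (log2 fold change -1.82 ± 0.14 SE, adjusted p 2.71e-08). Its neighbour KLK2 (ENSG00000167751.13, chromosome 19, 50861568 to 50880567), which encodes a protease that activates the KLK3 product, dropped from 438, 485 and 488 CPM to 149, 158 and 220.4 CPM (log2 fold change -1.38 ± 0.15 SE, adjusted p 2.31e-06). Only 804 bases separate the annotated genes. KLK4, another protease of the cluster, lies 25784 bases beyond KLK2 and went the other way, from 169, 143 and 128 CPM to 292, 249 and 220.4 CPM (log2 fold change 0.77 ± 0.16 SE, adjusted p 0.00707). The arms were apart for all 3 genes. The call was lost for KLK4 (adjusted p up to 0.0526) without DMSO replicate 3 or SEL120-34A replicate 1, whereas KLK3 and KLK2 kept theirs in every such fit. KLK2 and KLK3 are close in sequence, and reads from shared stretches could have been divided between them by the counting.

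The resemblance extends to the promoters. The 250 bases before the start sites of KLK3 and KLK2 in RefSeq (GRCh38.p14, plus strand, chr19:50854665-50854914 and chr19:50873189-50873438) are shown 5′ to 3′ because both genes fell together, and the capitals mark the longest run of bases that they share, 80 in all. The KLK2 start site in RefSeq lies inside the span that GENCODE gives the gene. The longest run that the KLK4 window shares with either has 8 bases.
KLK3: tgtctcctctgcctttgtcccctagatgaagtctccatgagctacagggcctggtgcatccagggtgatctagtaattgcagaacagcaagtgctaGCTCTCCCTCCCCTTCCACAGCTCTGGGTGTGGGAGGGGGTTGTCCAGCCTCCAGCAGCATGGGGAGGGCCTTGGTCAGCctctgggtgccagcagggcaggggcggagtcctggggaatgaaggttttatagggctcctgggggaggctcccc
KLK2: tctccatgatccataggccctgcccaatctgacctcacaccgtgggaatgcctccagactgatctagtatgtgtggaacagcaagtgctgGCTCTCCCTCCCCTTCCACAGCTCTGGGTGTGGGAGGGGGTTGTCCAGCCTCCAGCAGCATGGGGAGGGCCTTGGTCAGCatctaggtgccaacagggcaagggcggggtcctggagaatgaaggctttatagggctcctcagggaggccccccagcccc

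Genes known to respond to androgen moved both ways. Of 37 tested members of the androgen response list, 4 were higher and 4 lower (21.6% called). These counts include the kallikreins above, with KLK4 among the higher and KLK3 and KLK2 among the lower. The median was 0.08, or -0.01 with library totals alone. CENPN, a centromere protein that is carried in this list, fell from 189, 181 and 141 CPM to 80.2, 73.8 and 90.1 CPM (log2 fold change -1.04 ± 0.19 SE, adjusted p 0.00172). CREB3L4, a membrane-bound transcription factor, also fell (-0.80, adjusted p 0.0255). The members that rose were KLK4, STEAP1, PLPP1 and ZMIZ1. STEAP1, a prostate surface metalloreductase-family protein, was at 742, 711 and 671 CPM in the controls and 995, 1051 and 1108 CPM after treatment (log2 fold change 0.57 ± 0.10 SE, adjusted p 0.00181), without overlap. PLPP1, a lipid phosphatase, changed by 0.64, adjusted p 0.0104, and ZMIZ1, a coregulator of the androgen receptor, by 1.47, adjusted p 0.0158. With 1 library left out the list had 1 to 5 rises and 3 to 8 falls, and calls were lost for CREB3L4 (adjusted p up to 0.188), PLPP1 (up to 0.0788) and ZMIZ1 (up to 0.114) without 1 or more of DMSO replicate 1, 2 or 3 or SEL120-34A replicate 1 or 2. FOLH1, which encodes prostate-specific membrane antigen, rose by 0.46 (adjusted p 0.0211), but its call was lost without TMM scaling (adjusted p 0.0777) and when 1 library was left out, (adjusted p up to 0.104) without DMSO replicate 2 or 3 or SEL120-34A replicate 1. TMPRSS2, the membrane protease often fused to ERG in prostate cancer, did not pass at 110.1, 73.7 and 81.9 CPM against 146, 109 and 117 CPM (log2 fold change 0.43 ± 0.19 SE, adjusted p 0.274), nor did FKBP5, a chaperone of steroid receptors (log2 fold change -0.02 ± 0.28 SE, adjusted p 0.987). TSC22D3, which responds to glucocorticoid, was at 37.1, 59.5 and 125 CPM and 106, 127 and 144 CPM, and the test turned on DMSO replicate 3 (adjusted p 0.177 with it and 0.000539 without it). No member of the steroid receptor list (6 tested) passed. Among 8 tested genes of androgen metabolism and glucuronidation none passed, with UGT2B17 at 0.41, adjusted p 0.320 and UGT2B15 at -0.51, adjusted p 0.406.

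Among genes above the floor of detection in both arms the largest rise was that of IGFBP3 (ENSG00000146674.16, chromosome 7, 45912245 to 45921874), which encodes the main circulating carrier of insulin-like growth factors. Its control levels were uneven, at 92.1, 30.9 and 15.4 CPM, and the treated libraries stood at 525, 409.7 and 332 CPM. All treated libraries were above the highest control (log2 fold change 3.10 ± 0.31 SE, adjusted p 1.18e-06), and without DMSO replicate 1, the control with the most IGFBP3, the adjusted p was 1.85e-09. The other 3 tested genes of the IGF axis list did not pass.

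Genes of G protein-coupled receptor signalling held the second largest change. ADRA2A (ENSG00000150594.7, chromosome 10, 111077029 to 111080907) encodes the alpha-2A adrenergic receptor, which lowers cyclic AMP through inhibitory G proteins. It rose from 124, 64.2 and 80.7 CPM to 817, 712 and 466 CPM (log2 fold change 2.82 ± 0.20 SE, adjusted p 1.04e-08), with the smallest adjusted p of any gene. S1PR3, a receptor for sphingosine 1-phosphate, rose from 25.6, 19.0 and 8.96 CPM to 54.7, 96.7 and 61.3 CPM (log2 fold change 2.0 ± 0.33 SE, adjusted p 0.000816). These 2 genes were the only members called among 17 tested on the list, whose median was 0.02 (-0.06 with library totals and -0.10 to 0.16 with 1 library left out). GPR158, an orphan receptor outside the list, also rose (log2 fold change 1.52 ± 0.27 SE, adjusted p 0.00188). SHOC2, a scaffold protein of RAS to RAF signalling, ends 59722 bases before ADRA2A on the same strand. It rose from 26.9, 23.8 and 23.0 CPM to 91.2, 63.6 and 61.3 CPM (log2 fold change 1.49 ± 0.27 SE, adjusted p 0.00181), so that both neighbours on chromosome 10 were higher.

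Several other large rises concerned secreted, matrix and metabolic genes. SAT1 (ENSG00000130066.17, chromosome X, 23783173 to 23786210), the enzyme that acetylates spermidine and spermine for their breakdown, rose from 71.7, 66.6 and 49.9 CPM to 386, 272 and 220.4 CPM (log2 fold change 2.19 ± 0.21 SE, adjusted p 5.6e-07). FN1, fibronectin, was at 159, 119 and 146 CPM before and 623, 735 and 337 CPM after treatment (log2 fold change 1.96 ± 0.20 SE, adjusted p 2.25e-06). SEC11C, a catalytic subunit of the signal peptidase, rose from 636, 423 and 483 CPM to 1918, 1331 and 1284 CPM (log2 fold change 1.53 ± 0.15 SE, adjusted p 7.41e-07). Arms did not overlap for any of these. The other tested members of the polyamine list (17 of 18) did not pass, and the list had a median of 0.02, or -0.07 with library totals. On the mesenchymal and matrix list FN1 and COL5A2 were the 2 called members of 12. COL5A2, a fibrillar collagen chain, had 1, 0 and 3 counts in the controls and 17, 11 and 13 in the treated libraries, and no fold change is given because the controls were at the floor. Fibroblast markers were close to 0 as a group, with COL1A2, DCN and LUM at 0 counts in all libraries, but their summed level was 11.5 to 19.0 CPM in the controls and 21.9 to 32.6 CPM after treatment. COL3A1 had 2, 0 and 0 counts in the controls and 4, 6 and 12 in the treated libraries, and COL1A1 had 7, 7 and 13 against 2, 5 and 5. The part of these markers in the rise of FN1 and COL5A2 was not tested.

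MESP1, a bHLH transcription factor of early mesoderm, rose from 96.0, 69.0 and 65.3 CPM to 328, 279.9 and 215 CPM (log2 fold change 1.79 ± 0.19 SE, adjusted p 2.31e-06). CAMK2N1, an endogenous inhibitor of calcium/calmodulin-dependent kinase II, rose from 80.6, 85.6 and 102 CPM to 208, 290.1 and 385 CPM (log2 fold change 1.75 ± 0.19 SE, adjusted p 3.23e-06). HSD11B2, which inactivates cortisol, changed by 1.53 ± 0.23 SE, adjusted p 0.000244. The 15 largest rises and the 15 largest falls were taken among called genes with a symbol whose arms stood apart and whose counts averaged 20 or more. Genes with fewer counts, such as CD24 (2.50), were left out of this ranking. The remaining genes among these 15 rises were BASP1 (1.86, adjusted p 0.000473), the membrane protein TMEM184C (1.59, adjusted p 0.000112), the serine carboxypeptidase SCPEP1 (1.45, adjusted p 0.000658) and TRIM49D1 (2.21, adjusted p 0.000240). TRIM49D1 has close paralogs that could share its reads, so its value is uncertain. In BASP1 the spread among treated libraries was wide, at 346, 102 and 176 CPM against 64.0, 49.95 and 47.4 CPM in the controls. Each of the 15 rises kept its call in every fit that left out 1 library, as did KLK3, KLK2, RBM3, RRM2, HMGB2 and CENPN among the 15 falls.

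**Figure D2:**
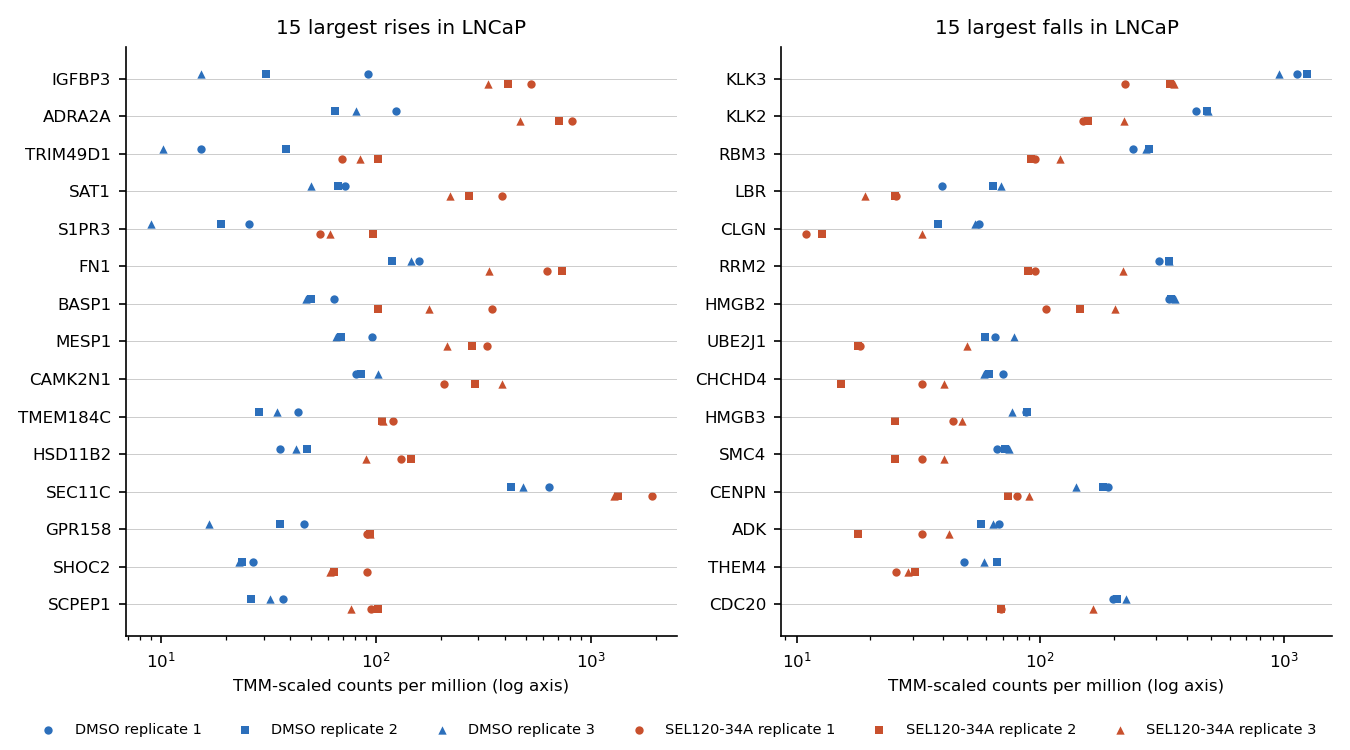
Level of 15 genes that rose and 15 that fell in each of the 6 LNCaP libraries, in TMM-scaled CPM on a log axis. DMSO is in blue, SEL120-34A in red, and the marker shape gives the replicate number. The genes had the largest changes each way among called genes with a symbol whose arms stood apart and whose counts averaged 20 or more. For IGFBP3 the controls spread from 15.4 to 92.1 CPM and all treated libraries lie at 332 CPM or above, and among the falls treated replicate 3 is often the library closest to the controls, as for RRM2 and CDC20.

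The S phase and G2/M gene lists, which follow replication and mitosis, had negative medians. All 28 tested S phase genes had a negative log2 fold change, with a median of -0.41, and 2 passed the test (7.14% called). In bulk RNA fewer cells in a phase and less of these transcripts per cell cannot be told apart. RRM2, the regulatory subunit of ribonucleotide reductase, which supplies deoxynucleotides for replication, fell from 308, 338 and 337 CPM to 94.8, 89.1 and 218 CPM (log2 fold change -1.20 ± 0.21 SE, adjusted p 0.00171). CENPU, a protein of the inner kinetochore, fell from 84.5, 66.6 and 88.3 CPM to 40.1, 35.6 and 51.7 CPM (log2 fold change -0.90 ± 0.23 SE, adjusted p 0.0317). No treated library reached a control in either gene. Summed over the list, levels were 2912, 2857 and 3165 CPM in the DMSO libraries and 1936, 2051 and 2495 in the SEL120-34A libraries. SEL120-34A replicate 3 was the highest treated library in RRM2, CENPU and the sum, and still below every control.

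Of 37 tested G2/M genes, 7 fell and 1 rose (21.6% called), 33 of 37 were negative and the median was -0.49. CDC20, the activator of the anaphase-promoting complex, was at 199.7, 207 and 225 CPM in the controls and at 69.3, 68.7 and 165 CPM in the treated libraries (log2 fold change -0.97 ± 0.22 SE, adjusted p 0.0158). SMC4, a condensin subunit, fell from 66.6, 71.4 and 74.3 CPM to 32.8, 25.4 and 40.2 CPM (log2 fold change -1.07 ± 0.25 SE, adjusted p 0.0171). BIRC5, or survivin, which acts in the chromosomal passenger complex and as an inhibitor of apoptosis, fell from 269, 243 and 257 CPM to 139, 142 and 197 CPM (log2 fold change -0.66 ± 0.16 SE, adjusted p 0.0198). The other falls on the list were those of HMGB2, LBR, the tubulin TUBB4B (-0.48, adjusted p 0.0239) and the ubiquitin-conjugating enzyme UBE2C (-0.53, adjusted p 0.0340). CKS2, a small partner of cyclin-dependent kinases, was the member that rose (0.58, adjusted p 0.0382), from 199.7, 247 and 270.1 CPM to 397, 399 and 284 CPM. With 1 library left out the number of lower G2/M genes ranged from 1 to 6 and that of lower S phase genes from 1 to 4, and calls were lost for CDC20 (adjusted p up to 0.116), SMC4 (up to 0.126), BIRC5 (up to 0.129), CENPU (up to 0.174), TUBB4B (up to 0.123), UBE2C (up to 0.181) and CKS2 (up to 0.215) without 1 or more of DMSO replicate 1, 2 or 3 or SEL120-34A replicate 1 or 2. The list medians stayed between -0.60 and -0.45 for G2/M and between -0.55 and -0.34 for S phase in the same fits. Library totals gave medians of -0.57 and -0.49, with 11 lower G2/M genes and no call for CKS2.

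**Figure D3:**
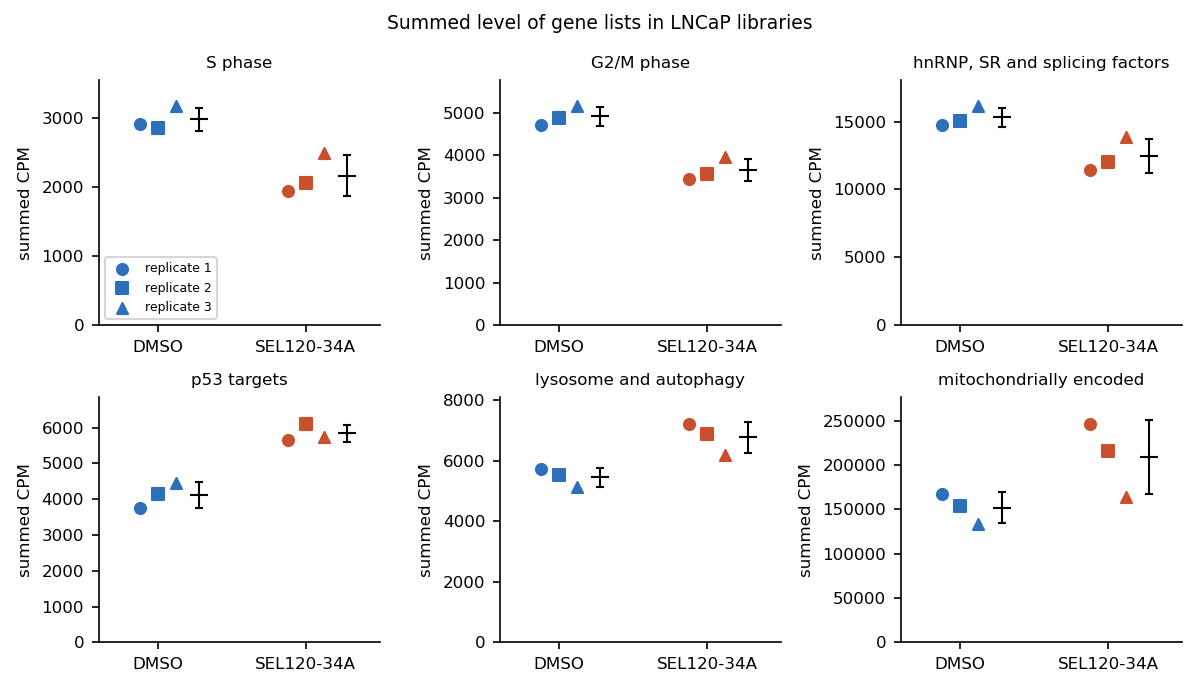
Summed TMM-scaled CPM (vertical axes, from 0) of 6 gene lists in the LNCaP libraries, by arm, with a marker shape per replicate number and the mean ± SD (n = 3) beside the points. The S phase, G2/M and splicing sums are lower and the p53 and lysosome sums higher in every treated library than in every control, whereas the mitochondrially encoded sum of treated replicate 3 (164036 CPM) lies within the controls.

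The promoters of the G2/M genes share sequence. Shares within the G2/M and S phase lists are properties of those lists, whatever the treatment did. The CHR element (TTTGAA, searched on both strands in the 300 bases from 250 before to 50 after the RefSeq start site) was present for 22 of the 31 G2/M genes with a promoter in the table (71.0%), against 8.57% of the 4564 tested genes with one and 15.4% of all 27305 promoters. Among the genes that fell it was found in 13 of 47 (27.7%), and among those that rose in 9 of 102 (8.82%). CCAAT, searched likewise, was in 27 of 47 promoters of lower genes (57.4%), 38 of 102 of higher genes (37.3%) and 38.4% of the tested genes. The E2F letters TTTCCCGC and TTTGGCGC occurred in 9 of 23 S phase promoters (39.1%) and in 4.16% of the tested genes, but in 1 of 47 lower genes (2.13%) and 6 of 102 higher genes (5.88%). The windows of CDC20 (chr1:43358731-43358980) and HMGB3 (chrX:150983085-150983334), both on the plus strand of GRCh38.p14, are shown up to the start site because these genes fell and hold both elements, with CHR and CCAAT matches in capitals.
CDC20: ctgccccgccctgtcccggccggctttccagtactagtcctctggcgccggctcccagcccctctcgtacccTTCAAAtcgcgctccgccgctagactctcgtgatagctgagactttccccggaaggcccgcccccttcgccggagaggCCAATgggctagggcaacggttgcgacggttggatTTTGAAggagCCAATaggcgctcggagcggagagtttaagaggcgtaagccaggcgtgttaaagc
HMGB3: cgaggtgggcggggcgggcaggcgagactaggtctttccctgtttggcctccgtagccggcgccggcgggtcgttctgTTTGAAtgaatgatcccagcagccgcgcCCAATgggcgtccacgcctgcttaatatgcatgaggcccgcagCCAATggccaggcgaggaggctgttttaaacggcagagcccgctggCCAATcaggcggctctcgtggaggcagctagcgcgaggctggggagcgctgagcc
Other motifs were searched in the same windows. The antioxidant response element (TGACNNNGC) was in 25.5% of lower, 14.7% of higher and 16.3% of tested genes with a promoter. For the androgen response half-site (AGAACA) these shares were 10.6%, 5.88% and 8.15%, and for the E-box (CACGTG) 14.9%, 12.7% and 11.2%. A match describes the letters only. RBM3, CENPN, SMC4, ZWINT, H2AX, TUBB4B, LMNB2, RBMX, CDKN3, SAPCD2 and PLIN3 were the other lower genes with a CHR match.

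Outside the Seurat lists, further genes with known roles in division fell, named here after their values were seen. They were the salvage enzyme thymidine kinase TK1 (-0.54, adjusted p 0.0325), the kinetochore protein ZWINT (-0.90, adjusted p 0.00687), the kinesin KIF22 (-0.82, adjusted p 0.0282), the shugoshin SGO2 (-1.44, adjusted p 0.0472), the recombination factor RAD54L (-1.46, adjusted p 0.0277), the histone variant H2AX (-0.76, adjusted p 0.0149), the phosphatase CDKN3 (-0.81, adjusted p 0.0318) and the transcription factor MYBL2 (-0.98, adjusted p 0.0480). The tubulins TUBA1B (-0.57, adjusted p 0.00901) and TUBB (-0.52, adjusted p 0.00586) fell as well, TUBA1B from 4419, 5383 and 5677 CPM to 2993, 3084 and 4303 CPM. Arms overlapped for MYBL2 and for none of the others in this group. ZWINT was the one of these 10 genes that kept its call with any 1 library left out. The other calls were lost for TK1 (adjusted p up to 0.123), KIF22 (up to 0.137), SGO2 (up to 0.156), RAD54L (up to 0.144), H2AX (up to 0.0928), CDKN3 (up to 0.173), MYBL2 (up to 0.181), TUBA1B (up to 0.0749) and TUBB (up to 0.0592) without 1 or more of DMSO replicate 1, 2 or 3 or SEL120-34A replicate 1, 2 or 3. Among regulators of G1, CDKN1A, which encodes the CDK inhibitor p21, was the only call of 18 tested genes. Its level rose from 141, 102 and 80.7 CPM to 186, 234 and 167 CPM (log2 fold change 0.84 ± 0.20 SE, adjusted p 0.0170). CCND1, cyclin D1, was at -0.30, adjusted p 0.406 and MYC at 453, 514 and 387 CPM against 561, 557 and 414 CPM (log2 fold change 0.18 ± 0.14 SE, adjusted p 0.583). BTG1, an antiproliferative protein that recruits the deadenylation machinery, rose from 447, 390.1 and 364 CPM to 642, 684 and 782 CPM (log2 fold change 0.82 ± 0.12 SE, adjusted p 0.000244), 1 of 5 tested BTG and TOB genes.

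Falls were also found on the high mobility group, lamina and splicing lists, with HMGB2 and LBR counted under G2/M as well. Of 8 tested high mobility group genes, 4 fell and none rose, with a median of -0.41. HMGB2, which bends DNA and is abundant in dividing cells, fell from 337, 343 and 358 CPM to 106, 145 and 203 CPM (log2 fold change -1.14 ± 0.17 SE, adjusted p 0.000244). HMGB3 was at 87.0, 88.0 and 76.8 CPM in the controls and at 43.8, 25.4 and 47.9 CPM in the treated libraries (log2 fold change -1.08 ± 0.24 SE, adjusted p 0.0141). The nucleosome-binding HMGN2 (-0.93, adjusted p 0.0123) and HMGB1 (-0.52, adjusted p 0.0237) fell too. Every treated library lay below every control in all 4. Calls were lost for HMGB3 (adjusted p up to 0.121), HMGN2 (up to 0.0703) and HMGB1 (up to 0.127) without 1 or more of DMSO replicate 2 or 3 or SEL120-34A replicate 1 or 2. LBR, the lamin B receptor of the inner nuclear membrane, fell from 39.7, 64.2 and 69.1 CPM to 25.5, 25.4 and 19.2 CPM (log2 fold change -1.31 ± 0.32 SE, adjusted p 0.0209), and LMNB2, lamin B2, by 0.90, adjusted p 0.0244 on the log2 scale. They were the 2 called of 11 lamina genes, whose median was -0.02 (-0.27 to -0.03 with 1 library left out), and both calls were fragile, being lost for LBR (adjusted p up to 0.120) and LMNB2 (up to 0.118) without 1 or more of DMSO replicate 1, 2 or 3 or SEL120-34A replicate 1, 2 or 3.

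RBM3, a cold-inducible RNA-binding protein, fell from 241, 281 and 271 CPM to 94.8, 91.6 and 121 CPM (log2 fold change -1.33 ± 0.16 SE, adjusted p 2.14e-05). It was 1 of 6 falls among 72 tested hnRNP, SR and splicing factors, of which none rose, with a median of -0.27 and 54 negative values. SRSF2, an SR protein that defines exons, dropped from 429, 426 and 463 CPM to 252, 259.5 and 309 CPM (log2 fold change -0.67 ± 0.13 SE, adjusted p 0.00312). HNRNPA1 (-0.60, adjusted p 0.00666), HNRNPD (-0.54, adjusted p 0.0209), HNRNPA3 (-0.65, adjusted p 0.0260) and HNRNPU (-0.59, adjusted p 0.0489) were the others, and the arms overlapped for HNRNPU. HNRNPA1 has many processed copies in the genome, and HNRNPA1L3, which resembles it, fell by a similar amount (-0.72, adjusted p 0.0253), so reads could have been split between them. Calls were lost for HNRNPA1 (adjusted p up to 0.0526), HNRNPD (up to 0.127), HNRNPA3 (up to 0.168) and HNRNPU (up to 0.193) without 1 or more of DMSO replicate 1, 2 or 3 or SEL120-34A replicate 1, 2 or 3. The number of lower splicing genes ranged from 2 to 10 with 1 library left out. The rest of the 15 falls ranked above were CLGN, a chaperone of the endoplasmic reticulum (-1.28, adjusted p 0.0367), UBE2J1, a ubiquitin-conjugating enzyme of that organelle (-1.12, adjusted p 0.0405), CHCHD4, an import factor of the mitochondrial intermembrane space (-1.08, adjusted p 0.0365), adenosine kinase ADK (-1.0, adjusted p 0.0477) and the thioesterase THEM4 (-0.99, adjusted p 0.0458). These 5 had low counts, and calls were lost for CLGN (adjusted p up to 0.194), UBE2J1 (up to 0.234), CHCHD4 (up to 0.240), ADK (up to 0.276) and THEM4 (up to 0.148) without 1 or more of DMSO replicate 1, 2 or 3 or SEL120-34A replicate 1, 2 or 3.

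**Figure D4:**
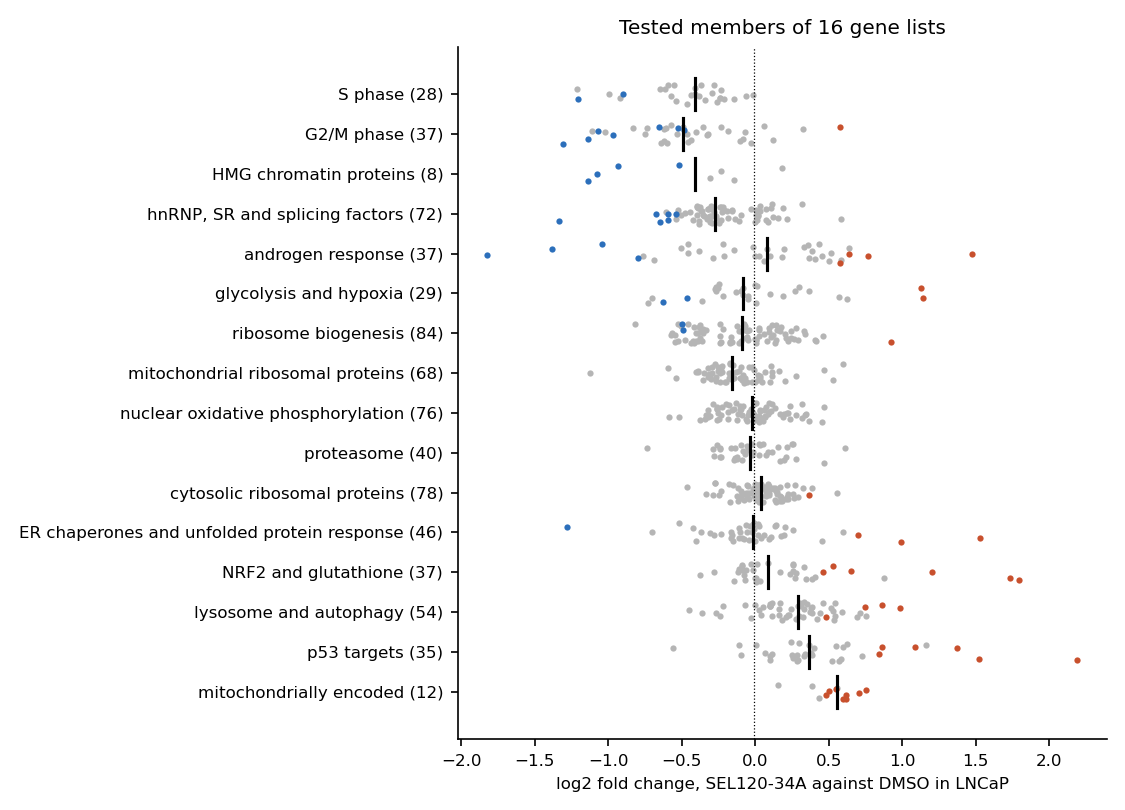
Log2 fold change of every tested member of 16 gene lists in LNCaP (horizontal axis), with the number tested in brackets, members past an adjusted p of 0.05 in red (higher) or blue (lower), a black bar at the list's median and a dotted line at the median of all tested genes (-0.01). Medians run from -0.49 for G2/M to 0.55 for mitochondrially encoded genes, and lists such as the proteasome and nuclear oxidative phosphorylation are centred near 0.

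Transcripts encoded by the mitochondrial genome, subunits of the respiratory chain and ribosomal RNAs, were also examined. Of the 12 tested, 8 rose and none fell (66.7% called), with a median of 0.55. MT-ND1, a subunit of complex I, went from 9132, 8199 and 8378 CPM to 16662, 13606 and 11706 CPM (log2 fold change 0.71 ± 0.11 SE, adjusted p 0.000361). MT-CYB, of complex III, went from 1636, 1719.7 and 1444 CPM to 2570.4, 2580.2 and 2099 CPM (log2 fold change 0.59 ± 0.11 SE, adjusted p 0.00167). MT-ND2 (0.61, adjusted p 0.000749), MT-ND5 (0.76, adjusted p 0.00258), MT-CO3 (0.48, adjusted p 0.0104), MT-ND4 (0.55, adjusted p 0.0115), MT-ATP6 (0.62, adjusted p 0.0222) and MT-ND3 (0.50, adjusted p 0.0315) were the other calls, with overlapping arms in MT-ATP6. All mitochondrially encoded genes together took 17.3%, 15.7% and 13.9% of counts in the controls and 23.3%, 20.8% and 16.5% in the treated libraries, and this share overlapped between arms (exact permutation test, two-sided p = 0.2, where the smallest possible is 0.1). The share was lowest in SEL120-34A replicate 3, the treated library nearest to the controls, and the number of calls ranged from 4 to 11 with 1 library left out. A fit with the mitochondrially encoded genes removed before scaling called 202 genes, 188 of them among the 199. No nuclear-encoded partner passed. None of 76 tested nuclear oxidative phosphorylation genes passed (median -0.02), with ATP5MC3 at -0.26, adjusted p 0.141 and ATP5F1B at -0.18, adjusted p 0.440, and none of 68 mitochondrial ribosomal protein genes did (median -0.16, 52 negative), with MRPL51 at -0.07, adjusted p 0.836 and MRPL20 at -0.27, adjusted p 0.300.

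Targets of p53, the tumour suppressor that answers DNA damage and other stress, had a positive median. Of 35 tested, 6 rose and none fell (17.1% called), 32 were positive and the median was 0.37. Beside SAT1 and CDKN1A these were GADD45A, a stress sensor that binds PCNA, which rose from 39.7, 54.7 and 37.1 CPM to 102, 132 and 95.8 CPM (log2 fold change 1.37 ± 0.22 SE, adjusted p 0.000658), TP53INP1 (1.09, adjusted p 0.00970), TP53I3 (1.53, adjusted p 0.0222) and GDF15. GDF15, a secreted stress cytokine of the TGF-beta family, was uneven in the controls, at 433, 626 and 1128 CPM, and even in the treated libraries, at 1345, 1323 and 1330.1 CPM (log2 fold change 0.86 ± 0.20 SE, adjusted p 0.0158). MDM2, the ubiquitin ligase of p53, was at 29.4, 14.3 and 26.9 CPM and 21.9, 56.0 and 15.3 CPM and did not pass (log2 fold change 0.28 ± 0.40 SE, adjusted p 0.804). Library totals put the median at 0.29. With 1 library left out between 3 and 7 members were called, and calls were lost for CDKN1A (adjusted p up to 0.128), GDF15 (up to 0.135), TP53INP1 (up to 0.123) and TP53I3 (up to 0.153) without 1 or more of DMSO replicate 1, 2 or 3 or SEL120-34A replicate 1 or 2.

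Rises were also found among antioxidant and iron storage genes. Of 37 tested NRF2 and glutathione genes 6 were higher and none lower (16.2% called), while the median was 0.09. GCLC, the catalytic subunit of the enzyme that starts glutathione synthesis, rose from 15.4, 11.9 and 20.5 CPM to 54.7, 61.1 and 51.7 CPM (log2 fold change 1.73 ± 0.30 SE, adjusted p 0.00141). FTH1, the ferritin heavy chain, rose from 956, 980.0 and 877 CPM to 1644, 1407 and 1372 CPM (log2 fold change 0.65 ± 0.10 SE, adjusted p 0.000519), and FTL, the light chain, changed by 0.53, adjusted p 0.0134. The glutathione transferases GSTA1 (1.80, adjusted p 0.00785) and GSTA4 (1.21, adjusted p 0.00785) and the lipid peroxidase GPX4 (0.46, adjusted p 0.0296) completed the calls. FTH1P8, a processed copy of FTH1 with which it could share reads, rose too (0.93, adjusted p 0.00206). With 1 library left out 3 to 7 members were called, and calls were lost for GSTA1 (adjusted p up to 0.0753), FTL (up to 0.0853) and GPX4 (up to 0.153) without 1 or more of DMSO replicate 2 or 3 or SEL120-34A replicate 1 or 2. The metal-binding MT2A rose from 21.8, 21.4 and 15.4 CPM to 65.6, 43.3 and 63.2 CPM (log2 fold change 1.56 ± 0.30 SE, adjusted p 0.00312), 1 of 13 tested metallothionein and zinc genes, whose median was 0.25.

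In the lysosome and autophagy list 4 of 54 tested genes were higher and none lower (7.41% called), with 47 positive values and a median of 0.29. These were SMPDL3A (0.86, adjusted p 0.0222), the membrane protein LAMP2 (0.74, adjusted p 0.0244), the tetraspanin CD63 (0.48, adjusted p 0.0264) and the cholesterol exporter NPC1 (0.98, adjusted p 0.0479). Calls were lost for SMPDL3A (adjusted p up to 0.105), LAMP2 (up to 0.213), CD63 (up to 0.139) and NPC1 (up to 0.326) without 1 or more of DMSO replicate 1, 2 or 3 or SEL120-34A replicate 1 or 2. None of the list was left without DMSO replicate 2 or 3 or SEL120-34A replicate 1 or 2 and 8 were made without SEL120-34A replicate 3. With library totals the median was 0.21, and calls were lost for CD63 (adjusted p 0.0845) and NPC1 (adjusted p 0.0703). RMC1 (1.11, adjusted p 0.0209 and up to 0.115 without DMSO replicate 2 or 3 or SEL120-34A replicate 1) overlaps NPC1 on the other strand of chromosome 18, and without strand in the counting the reads of the pair cannot be told apart.

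Endoplasmic reticulum genes gave 3 rises and 1 fall of 46 (8.70% called) around a median of -0.02. Beside SEC11C and CLGN these were SELENOM, a selenoprotein of the reticulum, which rose from 96.0, 99.9 and 98.6 CPM to 237, 188 and 171 CPM (log2 fold change 0.99 ± 0.17 SE, adjusted p 0.00112), and ERP29 (0.70, adjusted p 0.0190). The abundant chaperones PDIA3 (-0.11, adjusted p 0.752) and CALR (0.09, adjusted p 0.780), named from the antigen presentation list, of which none of 9 passed, did not pass. Glycolysis and hypoxia genes moved both ways, with 2 higher and 2 lower of 29 (13.8% called). LDHA, lactate dehydrogenase A, fell from 942, 1068 and 982 CPM to 514, 662 and 732 CPM (log2 fold change -0.63 ± 0.12 SE, adjusted p 0.00305) and GAPDH by 0.46, adjusted p 0.0158 on the log2 scale. The lactate exporter SLC16A3 (1.13, adjusted p 0.0168) and the carbonic anhydrase CA12 (1.14, adjusted p 0.0209) rose. Calls were lost for ERP29 (adjusted p up to 0.102), GAPDH (up to 0.129), SLC16A3 (up to 0.0923) and CA12 (up to 0.130) without 1 or more of DMSO replicate 1, 2 or 3 or SEL120-34A replicate 1, 2 or 3.

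Epithelial surface genes held a further strong rise. CD24, a small mucin-like surface protein, had 3, 5 and 10 counts in the controls and 20, 20 and 22 in the treated libraries (log2 fold change 2.50 ± 0.39 SE, adjusted p 0.000393). KRT18, a luminal keratin, fell from 663, 716 and 626 CPM to 496, 450.4 and 500.2 CPM (log2 fold change -0.47 ± 0.11 SE, adjusted p 0.0209), with the call lost (adjusted p up to 0.141) without DMSO replicate 1 or 2 or SEL120-34A replicate 1 or 2. They were the 2 calls of 27 keratin and junction genes (median -0.06, or -0.11 to 0.12 with 1 library left out). NFKB1, a subunit of NF-kappaB, rose (log2 fold change 1.37 ± 0.33 SE, adjusted p 0.0209), as the single call of 5 tested, and ID2, an inhibitor of bHLH factors, rose by 0.83, adjusted p 0.0308, as the single call of 9. The threonyl-tRNA synthetase TARS1 (0.75, adjusted p 0.00525, 1 of 37), the chaperone CHORDC1 (0.90, adjusted p 0.00218, 1 of 42), the cholesterol enzyme LSS (0.73, adjusted p 0.0386, 1 of 20) and the acyl-CoA synthetase ACSL1 (0.80, adjusted p 0.0355, 1 of 16, arms overlapping) were single rises in their lists. In ribosome biogenesis BRIX1 rose (0.92, adjusted p 0.00693), and NCL, nucleolin (-0.49, adjusted p 0.0477), and FBL, fibrillarin (-0.50, adjusted p 0.0479), fell among 84 tested. RPS19 (0.37, adjusted p 0.0345) was the only call among 78 cytosolic ribosomal protein genes. The share called was 3.57% in ribosome biogenesis and 1.28% in cytosolic ribosomal proteins, against 3.46% of all tested genes. For the lists of TARS1, CHORDC1, LSS and ACSL1 it was 2.70%, 2.38%, 5% and 6.25%. These calls are therefore given as single genes and not as a result about their lists. Without TMM scaling calls were lost for ID2 (adjusted p 0.0603), LSS (0.0777), ACSL1 (0.0713) and RPS19 (0.139). CHORDC1 and BRIX1 lost theirs when counts were thinned to the smallest library total (adjusted p 0.064 and 0.065). Calls were lost for NFKB1 (adjusted p up to 0.120), ID2 (up to 0.142), TARS1 (up to 0.0510), LSS (up to 0.169), ACSL1 (up to 0.172), NCL (up to 0.266), FBL (up to 0.207) and RPS19 (up to 0.192) without 1 or more of DMSO replicate 1, 2 or 3 or SEL120-34A replicate 1, 2 or 3.

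The following lists had no called member: proteasome (40 tested, median -0.04), fatty acid oxidation and peroxisome (26, 0.09), immediate early genes (18, 0.13), the MYC network (6, 0.15), interferon response (3, 0.13) and WNT targets (3, -0.30). The median ranged from -0.26 to 0.35 for immediate early genes and from -0.11 to 0.21 for the interferon list when 1 library was left out, so that its sign turned on single libraries in both. The most abundant members were PSMA7 (-0.09, adjusted p 0.783) and PSMB5 (-0.06, adjusted p 0.883) in the proteasome, ECHS1 (0.03, adjusted p 0.942) and ECI1 (0.17, adjusted p 0.680) in fatty acid oxidation, JUND (0.16, adjusted p 0.693) among immediate early genes and IFITM3 (0.07, adjusted p 0.901) and ISG15 (0.13, adjusted p 0.831) in the interferon list. BIRC5 was the only call among 14 apoptosis regulators (median 0.17, or -0.03 to 0.19 with 1 library left out). For cholesterol and fatty acid synthesis the medians were 0.25 and -0.01, for heat shock chaperones -0.17 and for ribosome biogenesis -0.09.

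Further genes that rose, outside the lists, are given as examples picked after their values were seen. CYB5A, cytochrome b5, rose from 985, 1104 and 1022 CPM to 2096, 1636 and 1796 CPM (log2 fold change 0.83 ± 0.11 SE, adjusted p 3.8e-05). SLPI, a secreted leukocyte protease inhibitor, was at 6.40, 14.3 and 8.96 CPM in the controls and at 51.0, 50.9 and 51.7 CPM in the treated libraries (log2 fold change 2.46 ± 0.35 SE, adjusted p 0.000165). The SLPI controls were near the floor of detection, so the size of its change is uncertain. TFPI, the inhibitor of tissue factor, rose from 154, 133 and 193 CPM to 376, 313 and 339 CPM (log2 fold change 1.07 ± 0.15 SE, adjusted p 0.000177). None of these 3 overlapped between arms. The amyloid precursor protein gene APP (1.57, adjusted p 0.0375, arms overlapping) and its paralog APLP2 (0.96, adjusted p 0.0131), the adhesion molecule ALCAM (1.30, adjusted p 0.00785), the semaphorin SEMA3C (1.01, adjusted p 0.0111), the cholesterol transporter ABCG1 (1.87, adjusted p 0.00970), the neutral endopeptidase MME (0.47, adjusted p 0.0374), the sodium pump subunit ATP1B1 (0.63, adjusted p 0.0168) and the small GTPases RAB9A (0.86, adjusted p 0.0296) and RAB17 (0.87, adjusted p 0.0178) rose as well. CEBPA, a transcription factor of differentiation, was higher (0.86, adjusted p 0.0371). CYB5A, SLPI and TFPI kept their calls with any 1 library left out, and the others were lost for APP (adjusted p up to 0.188), APLP2 (up to 0.102), ALCAM (up to 0.0597), SEMA3C (up to 0.0668), ABCG1 (up to 0.0652), MME (up to 0.178), ATP1B1 (up to 0.111), RAB9A (up to 0.114), RAB17 (up to 0.126) and CEBPA (up to 0.155) without 1 or more of DMSO replicate 1, 2 or 3 or SEL120-34A replicate 1, 2 or 3.

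To ask whether the response was particular to LNCaP, the effect was compared with that in 22Rv1, an enzalutamide-resistant line treated in the same way, also with 3 libraries per arm. The difference between the effects was tested in 7086 genes and passed in 52 (0.734%), while 811 had an unadjusted p below 0.05. Of LNCaP's 199 calls 19 were among the 52, a count that rests partly on the LNCaP libraries that also chose the 199. ADRA2A changed by 2.83 in LNCaP and by -0.80 in 22Rv1, a difference of 3.63 ± 0.31 SE, adjusted p 1.33e-10. IGFBP3 (3.10 against -0.17), FN1 (1.96 against -0.11), SAT1 (2.20 against 0.23), SHOC2 (1.50 against -1.0) and SEC11C (1.54 against 0.49) were also raised more in LNCaP, by tests of the difference with adjusted p-values from 5.07e-05 to 0.0237. HMGB2 fell more in LNCaP (-1.13 against -0.12). CENPN went in opposite directions, at -1.04 in LNCaP and 0.78 in 22Rv1 (adjusted p in 22Rv1 0.0450). GDF15 rose more in 22Rv1 (2.26, adjusted p 2.51e-07) than in LNCaP. Among the genes named from the lists, CD24 (2.51 in LNCaP against -0.44 in 22Rv1), MT2A (1.57 against -0.22) and GCLC (1.74 against -0.08) were raised more in LNCaP. BTG1 (0.83 against 1.92) and TSC22D3 (0.76 against 3.54) had the larger value in 22Rv1.

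The difference did not pass for KLK3, KLK2, RRM2, CDC20, SMC4, BIRC5 or CENPU. It was -1.25 ± 0.33 SE, adjusted p 0.0556 for CENPU and -0.67 ± 0.29 SE, adjusted p 0.371 for RRM2, and both passed without SEL120-34A replicate 3 (adjusted p 0.0398 and 0.00680). KLK3 had 7, 17 and 13 counts in the controls and 7, 2 and 5 in the treated libraries of 22Rv1, and the difference was -1.41 ± 0.54 SE, adjusted p 0.291. For KLK2 it was -0.70 ± 0.43 SE, adjusted p 0.573, and for CDC20, which also fell in 22Rv1 (-0.74, adjusted p 0.00962), it was -0.22 ± 0.28 SE, adjusted p 0.821. RBM3 fell in both lines (-0.73 in 22Rv1, adjusted p 0.0140), with a difference of -0.60 ± 0.29 SE, adjusted p 0.417. CAMK2N1 rose in both (2.28 in 22Rv1, adjusted p 1.75e-05), with a difference of -0.52 ± 0.40 SE, adjusted p 0.659. TMPRSS2 rose in 22Rv1 by 1.89 (adjusted p 0.0245) and was not called in LNCaP, but the difference of -1.44 ± 0.56 SE, adjusted p 0.301 did not pass. S1PR3, BASP1 and TRIM49D1 had at most 1 count in any 22Rv1 library, so their effects could not be compared.

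**Figure D5:**
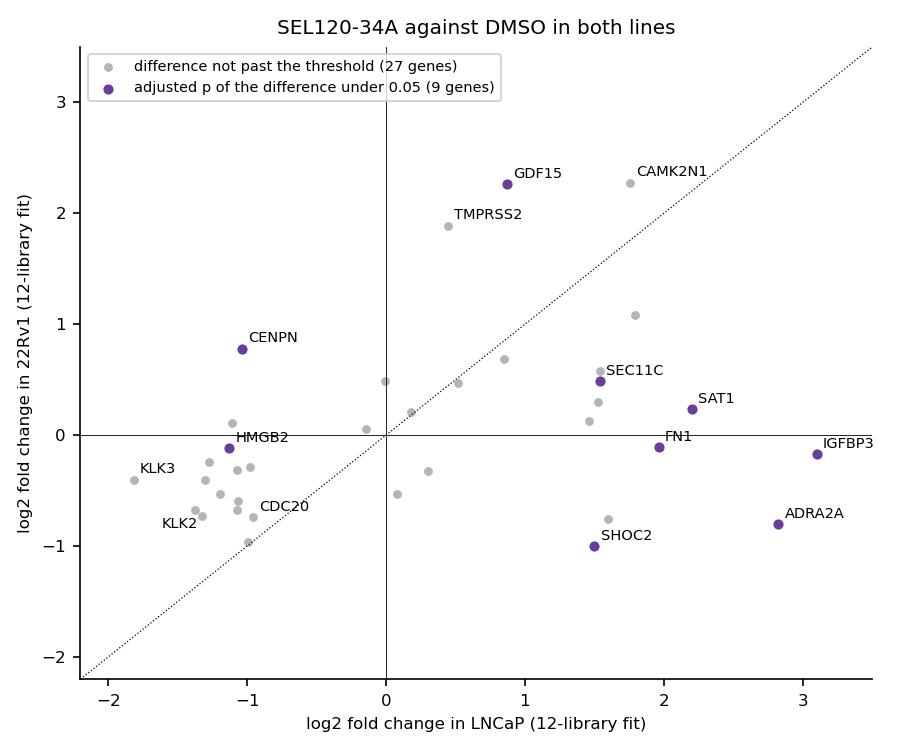
Log2 fold change of SEL120-34A against DMSO in LNCaP (horizontal axis) and 22Rv1 (vertical axis) for 36 of the genes named above, both from a fit of 12 libraries, with the 9 genes whose difference between lines passed an adjusted p of 0.05 in purple and a dotted line of equal effect. ADRA2A and IGFBP3 lie far right of the line near or below 0 on the vertical axis, while KLK2, CDC20 and CAMK2N1 lie nearer to it.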

How the data were processed

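Messenger RNA 3′ ends were counted by BRB-seq, in which samples are barcoded at reverse transcription and pooled. According to the labels and methods, the authors counted reads per gene with STARsolo on GRCh38.p13 and deposited raw counts. Whether molecular identifiers were collapsed and how strand was used were not given in the sources used here. The authors also deposited log2 CPM values (9638 genes), which served for 1 alternative. Total counts per LNCaP library were 291056 to 759548, and floors cover counting error only.

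Genes were filtered with filterByExpr, scaled with TMM factors on full library totals and tested with edgeR 4.0.16 (quasi-likelihood F-test, Benjamini-Hochberg adjustment, threshold 0.05) in R 4.3.3. The difference between lines was an interaction contrast over 12 libraries. The SE is the log2 fold change divided by the square root of the F statistic. The paper gives biological replication as its general rule, apart from exceptions it marks, and does not name these libraries there. Nothing in the labels says that replicate libraries came from separate cultures. The p-values therefore measure the spread between these samples, which may be technical, and no batch is named. Replicate pairs differed by more than counting error (chi-square per degree of freedom 1.29 to 2.44). The fit was tested on simulated data with known changes. In LNCaP it recovered 63.16% of log2 changes of 1 and 93.81% of those of 1.5, and 5.03% of its calls were false. The simulated counts were drawn once, with the spread fitted to these libraries and no shift shared by a whole library. Recovery in the real libraries may therefore differ. The test of the difference between lines recovered 54.45% of changes of 1.5, so it misses many differences of that size.

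Named genes were the 15 largest rises and falls with a mean of at least 20 counts, no overlap between arms and a symbol, a panel of 13, and up to 4 called members per list, or the 2 with most counts where none was called. Other genes were picked after their values were seen. Members and gene lists were chosen with earlier results of these data known. Lists were written from general knowledge, apart from the S and G2/M lists of Seurat 5.3.0. Coordinates are from GENCODE release 44 (62639 of 62703 identifiers found), promoters from RefSeq. Results were recomputed with library totals or DESeq2 (1.42.0) size factors in place of TMM, a block for replicate number, no filter or a stricter one, 12 libraries, no mitochondrial genes, counts thinned to 291056, 1 library left out at a time, limma-trend (3.58.1), DESeq2's Wald test and stricter thresholds.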

Additional observations from a re-analysis of the deposited data

Results flagged for a closer look

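The effect of SEL120-34A differed between LNCaP and 22Rv1 for 14 of the named genes, by the test of the difference in log2 fold change (LNCaP minus 22Rv1). It was 3.63 ± 0.31 SE, adjusted p 1.33e-10 for ADRA2A, 3.27 ± 0.50 SE, adjusted p 0.000129 for IGFBP3, 2.07 ± 0.30 SE, adjusted p 5.07e-05 for FN1 and 1.97 ± 0.42 SE, adjusted p 0.0129 for SAT1. For SEC11C it was 1.05 ± 0.21 SE, adjusted p 0.00514 and for CENPN -1.81 ± 0.31 SE, adjusted p 0.00102. Among list genes it was 2.96 ± 0.46 SE, adjusted p 0.000129 for CD24 and -1.10 ± 0.21 SE, adjusted p 0.00256 for BTG1. These 8 kept their call in all alternatives in which they were tested. SHOC2 differed by 2.50 ± 0.57 SE, adjusted p 0.0237, with the call lost after thinning (0.0573) and without SEL120-34A replicate 1 (0.0646). HMGB2 differed by -1.01 ± 0.23 SE, adjusted p 0.0250, with the call lost without DMSO replicate 3 (0.0683) or SEL120-34A replicate 1 (0.101) or 2 (0.0803). GDF15 differed by -1.39 ± 0.34 SE, adjusted p 0.0399, and lost the call in 7 alternatives, among them the fits that left out DMSO replicate 3 (0.231) or SEL120-34A replicate 1 (0.0919) or 2 (0.0727). MT2A differed by 1.79 ± 0.41 SE, adjusted p 0.0237, with the call lost in 5 alternatives (up to 0.131, after thinning), among them without DMSO replicate 3 (0.0874) or SEL120-34A replicate 1 (0.0646) or 3 (0.0596). GCLC differed by 1.82 ± 0.46 SE, adjusted p 0.0450, and the call was lost in 7 alternatives, with adjusted p-values of 0.116, 0.118 and 0.0525 without DMSO replicate 1, 2 or 3 and of 0.0919 and 0.124 without SEL120-34A replicate 1 or 2. TSC22D3 differed by -2.77 ± 0.57 SE, adjusted p 0.00693, and lost the call without DMSO replicate 3 (0.103) and with limma-trend (0.0636). Low 22Rv1 counts bear on SHOC2, which had 8, 9 and 20 counts in the controls and 5, 3 and 1 in the treated libraries of 22Rv1, and on SAT1 (25, 10 and 19 and 12, 8 and 12).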

How the results depend on the processing

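The 199 calls (139 higher, 60 lower) became 111 (80 and 31) after thinning, 95 (66 and 29) with the DESeq2 Wald test, which gave no adjusted p for 34 of the 77 called named genes, 74 (62 and 12) at an adjusted p of 0.01 and 80 (65 and 15) with a log2 change of at least 1. Library totals gave 207 (104 and 103). With 1 library left out there were 86 to 281 calls, 72 to 184 higher and 14 to 97 lower. Such fits have 2 libraries in an arm. The other alternatives gave 158 to 254. The 52 differences between lines became 31 with at least 10 counts in every library, 31 after thinning and 24 to 61 with 1 LNCaP library left out. No named gene changed sign among its called values. Calls were kept in 981 of 1176 checks of the 77 called named genes, most often lost without DMSO replicate 2 (34 genes), and 3 of 454 checks of the others passed. After thinning, 22 of the 75 called named genes still tested lost the call.

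Whether the replicate numbers pair the samples was not settled. Deviations of same-numbered libraries correlated at 0.30, -0.06 and 0.29, and those of other pairs at -0.34 to 0.09. Not every library correlated best with its own number. With the replicate block 254 genes were called, 193 of them among the 199, and the differences numbered 77. No called named gene lost its call under the replicate block, and UGT2B15 (-0.64, adjusted p 0.0299) passed, as did the difference between lines for CENPU (adjusted p 0.0466). Depth limits genes under about 20 counts per library, and CDK8, MED12 and MED13 were too low to test.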

Other observations

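Of 110 tested long non-coding RNAs 9 were higher and 1 lower (9.09% called), and of protein-coding genes 3.40% were called. They included PCAT1, a prostate cancer associated transcript, which was at 8.96, 9.51 and 6.40 CPM in the controls and 25.5, 40.7 and 38.3 CPM in the treated libraries (log2 fold change 2.12 ± 0.39 SE, adjusted p 0.00206), and NEAT1, the scaffold of paraspeckles (0.75, adjusted p 0.0376). The PCAT1 controls were near the floor of detection, so the size of its change is uncertain. SNHG1, a host gene of small nucleolar RNAs, was the one that fell (-0.75, adjusted p 0.0372). These genes were picked after their values were seen, and no test of the share was made. With 1 library left out PCAT1 kept its call, and calls were lost for NEAT1 (adjusted p up to 0.311) and SNHG1 (up to 0.169) without 1 or more of DMSO replicate 1, 2 or 3 or SEL120-34A replicate 1 or 2.

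The share of called genes was 3.46% over all tested genes and 1.23% to 6.57% by chromosome, apart from chromosomes 18 and 21, the Y chromosome with 4 tested genes and the mitochondrial genome. Chromosomes 18 and 21 were picked after these shares were seen. In them 8 genes rose and none fell of 84 tested on chromosome 18 (9.52% called), and 7 rose and none fell of 57 on chromosome 21 (12.3%). The chromosome 21 genes were CSTB (0.65, adjusted p 0.00256), LTN1 (1.46, adjusted p 0.00275), ABCG1, MIR99AHG, TTC3, APP and LSS, and those on chromosome 18 were SEC11C, CYB5A, TXNL1 (0.76, adjusted p 0.00754), MALT1 (1.19, adjusted p 0.0198), RMC1, NETO1, NAPG and NPC1. On chromosome 1, MTATP6P1 (0.56, adjusted p 0.0479) and MTCO3P12 (0.74, adjusted p 0.0209) are copies of mitochondrial sequence that rose along with the mitochondrially encoded genes, with which they could share reads. The arms overlapped for MTATP6P1. The neighbours TMEM116 and ERP29, which are 163 bases apart on chromosome 12, both rose (2.36, adjusted p 0.000182 and 0.70, adjusted p 0.0190). SEC11C, CYB5A, CSTB, LTN1 and TMEM116 kept their calls with any 1 library left out. Calls were lost for TXNL1 (adjusted p up to 0.0703), MALT1 (up to 0.120), RMC1 (up to 0.115), NETO1 (up to 0.175), NAPG (up to 0.214), NPC1 (up to 0.326), ABCG1 (up to 0.0652), MIR99AHG (up to 0.140), TTC3 (up to 0.120), APP (up to 0.188), LSS (up to 0.169), MTATP6P1 (up to 0.263), MTCO3P12 (up to 0.131) and ERP29 (up to 0.102) without 1 or more of DMSO replicate 1, 2 or 3 or SEL120-34A replicate 1, 2 or 3.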
